A study of Mus musculus with 2 samples.

Results

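The 10 genes described here are the NF-kB subunits Nfkb1, Nfkb2, Rel, Rela and Relb, and 5 genes that restrain or modulate NF-kB, namely Nfkbia, Nfkbie, Tnfaip3, Nfkbiz and Bcl3. They were picked by symbol from the 31053 genes listed in the deposited matrices, and each symbol was found there. All 10 had at least 100 unique molecular identifiers (UMIs, each standing for 1 captured transcript) in the 2 libraries together, a minimum that 10527 genes reached.

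Both libraries came from mice bearing leukemia driven by AE9a, a truncated AML1-ETO fusion delivered by a GFP retrovirus into fetal liver cells. The leukemia cells carried floxed Usp18 and UBCER-Cre, a recombinase present in all tissues that tamoxifen switches on, and were given to sub-lethally irradiated recipients. Sick recipients received oil (control) or tamoxifen, and 3 days after the first dose GFP+ Lin- c-Kit+ cells, which lack lineage markers and carry Kit, were sorted from spleen. Each library pooled 3 mice with 8000 cells targeted, and both titles carry the same batch number. The genotype and treatment labels give Usp18f/f for the oil group and Usp18delta/delta for the tamoxifen group. The treatment protocol instead describes Usp18+/f cells and heterozygous depletion, so the groups are named by injection. No Cre-negative library given tamoxifen was analysed here, so the drug and the deletion cannot be told apart.

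NF-kB is a family of dimeric transcription factors. RelA (p65), c-Rel and RelB carry an activation domain, whereas Nfkb1 and Nfkb2 encode the precursors p105 and p100, which are processed to the DNA-binding subunits p50 and p52. IkB proteins such as IkB-alpha (Nfkbia) and IkB-epsilon (Nfkbie) hold dimers in the cytoplasm until the IKK kinase marks them for degradation. Several IkB genes, and Tnfaip3, which encodes the ubiquitin-editing enzyme A20, are themselves NF-kB targets and so close a negative feedback loop. Nfkbiz (IkB-zeta) and Bcl3 encode nuclear IkB proteins that act with p50 or p52 on chromatin. In myeloid cells the pathway is known for its responses to cytokines of the TNF and IL-1 families.

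The genes are spread over 8 chromosomes (GENCODE M21, GRCm38). Nfkb1 lies on chromosome 3 from 135584655 to 135691547 and Rel on chromosome 11 from 23736847 to 23770970, both on the minus strand. Rela (5637483 to 5648130) and Nfkb2 (46304320 to 46312385) lie on the plus strand of chromosome 19. Relb (19606217 to 19629438) and Bcl3 (19808462 to 19822770) lie on the minus strand of chromosome 7. Nfkbia (chromosome 12, 55489410 to 55492647), Tnfaip3 (chromosome 10, 19000910 to 19015657) and Nfkbiz (chromosome 16, 55811375 to 55838899) are on the minus strand, and Nfkbie (chromosome 17, 45555703 to 45563169) is on the plus strand. All 10 are protein coding. Nfkb1, Nfkb2 and Bcl3 overlap other annotated genes, Gm43430 on the same strand as Nfkb1, Psd and a long noncoding RNA opposite Nfkb2, and Gm16174 and Gm16175 opposite Bcl3, so their counts are less certain than those of the other 7 genes.

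Because several of these genes are known NF-kB targets, the 250 bases before the start were searched for the kappa-B consensus, the 10-base NF-kB motif, on both strands. RefSeq promoter sequences (GRCm38.p6) matched 7 of the 10 genes, all but Nfkb1, Relb and Nfkbiz. The motif was found in 5 of the 7 (Nfkb2, Rel, Nfkbia, Nfkbie and Tnfaip3) and not in the windows of Rela and Bcl3, against 7.25% of the 32851 promoter windows in the table. The interferon-response core GAAANNGAAA was in 0 of the 7 and in 2.98% of all windows. The windows of 3 genes are shown because they belong to the gene with the highest library ratio (Rel) and to the 2 classical IkB genes, with the kappa-B matches in capitals, at chr11:23770970-23771219 (minus strand), chr12:55492648-55492897 (minus strand) and chr17:45555450-45555699 (plus strand).
Rel: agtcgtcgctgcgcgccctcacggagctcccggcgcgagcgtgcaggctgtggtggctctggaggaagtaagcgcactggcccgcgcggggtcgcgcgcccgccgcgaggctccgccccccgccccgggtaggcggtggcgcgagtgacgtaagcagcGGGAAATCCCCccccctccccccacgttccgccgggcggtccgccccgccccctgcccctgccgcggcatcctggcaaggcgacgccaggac
Nfkbia: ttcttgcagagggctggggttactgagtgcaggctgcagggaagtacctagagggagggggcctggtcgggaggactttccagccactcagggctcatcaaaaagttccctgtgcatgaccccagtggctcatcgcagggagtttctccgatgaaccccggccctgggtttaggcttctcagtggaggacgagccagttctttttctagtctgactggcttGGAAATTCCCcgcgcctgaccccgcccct
Nfkbie: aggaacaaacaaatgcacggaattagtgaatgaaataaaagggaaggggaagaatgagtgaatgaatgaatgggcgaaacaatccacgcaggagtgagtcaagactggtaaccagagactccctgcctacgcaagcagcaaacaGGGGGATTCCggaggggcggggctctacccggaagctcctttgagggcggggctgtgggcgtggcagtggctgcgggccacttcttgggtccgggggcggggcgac
Distances are counted from the RefSeq start, which lay within 58 bases of the GENCODE start except for Tnfaip3 and Nfkb2. The table lists 2 and 3 starts for these genes, and the ones nearest the GENCODE start lay 247 and 417 bases inside the annotated gene, so their windows lie almost wholly (Tnfaip3) or wholly (Nfkb2) within it. The Rel run holds 2 matches that overlap in all but 1 base and begin 92 and 91 bases before the start. The Nfkbia match begins 29 bases before the start and the Nfkbie match 106 bases before it. The Tnfaip3 window held GGAAATCCCC, the same letters as 1 of the Rel matches, 12 bases before this start, and GGGACACCCC at 125 bases. Nfkb2 held GGGAATTCCC and GGAATTCCCC, overlapping at 39 and 38 bases, and GGGGCTTTCC at 11 bases. These matches describe letters in the reference, and no binding was measured in these libraries.

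After cells with fewer than 500 genes or over 10% mitochondrial UMIs were left out, 6838 cells with 66045700 UMIs remained in the oil-labelled library and 6472 cells with 60661486 UMIs in the tamoxifen-labelled library, with medians of 8622.5 and 8209.5 UMIs per cell. The libraries had 14 barcodes in common. Kit, which defines the sort, was at 171 and 232 CPM (UMIs per 1000000 UMIs of the library). The defining lineage genes Cd3e, Ly6g and Cdh5 were at 0 after thinning to 3000 UMIs per cell (exact upper bounds 0.0583% and 0.0602% of cells), except for Cd3e in 1 cell, and summed macrophage genes reached 3.18 and 3.73 CPM. Usp18 itself was at 5.62 CPM (5.06 to 6.22) under oil and 15.4 CPM (14.4 to 16.4) under tamoxifen, against the direction of its deletion label. UMIs are counted per gene and do not show whether a transcript came from an intact or a deleted allele. These counts thus do not show whether the deletion took place, and the reason for the higher level was not tested. The libraries are referred to by their labels throughout. Of 16 measured interferon genes, 15 were higher in the tamoxifen-labelled library with an interval above 0, where the background is 19.3% of genes. The listed interferon genes summed to 318 and 549 CPM, with a median log2 ratio of 0.82. USP18 is known to restrain interferon signalling, but the cause of this difference was not tested. Ribosomal protein genes gave 24.4% and 28.1% of UMIs. As each group is 1 library, no difference could be set against replicate spread, and the comparisons carry neither tests nor p-values. Every 95% interval below covers counting error only.

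Among the 5 subunits, Rel differed most between the libraries and was higher in the tamoxifen-labelled library, Nfkb1 was slightly higher there, Rela was slightly lower, and Nfkb2 and Relb differed by no more than counting error. Rel, which encodes the c-Rel subunit, had 386 UMIs or 5.84 CPM (5.28 to 6.46) in the oil-labelled library and 620 UMIs or 10.2 CPM (9.43 to 11.1) in the tamoxifen-labelled library. The ratio was 1.75-fold (1.54 to 1.99), or 0.81 on the log2 scale (0.62 to 0.99), above that of 99.2% of genes tested. Nfkb1, the source of p50, gave 11207 and 11694 UMIs, which is 170 CPM (167 to 173) and 193 CPM (189 to 196), a log2 ratio of 0.18 (0.15 to 0.22). It was the most abundant of the 10 genes and had more UMIs than 92.7% of genes tested. Rela, the p65 subunit, was at 65.1 CPM (63.1 to 67.1) and 58.9 CPM (57.0 to 60.9), a log2 ratio of -0.14 (-0.21 to -0.079). The median log2 ratio of all genes tested was -0.063, and 34.6% of genes tested had a lower ratio than Rela. Nfkb2, the source of p52, was at 7.80 CPM (7.14 to 8.50) and 7.15 CPM (6.50 to 7.86), and its log2 ratio was -0.12 (-0.31 to 0.063). Relb, the usual partner of p52, was at 9.57 CPM (8.84 to 10.3) and 9.50 CPM (8.74 to 10.3), a log2 difference of -0.011 (-0.18 to 0.15).

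The inhibitors did not move as a group. Tnfaip3 was lower in the tamoxifen-labelled library, Nfkbie and Nfkbiz were higher, and the ratios of Nfkbia and Bcl3 had intervals that included 0. Tnfaip3 had 2214 UMIs or 33.5 CPM (32.1 to 34.9) in the oil-labelled library and 1603 UMIs or 26.4 CPM (25.1 to 27.8) in the tamoxifen-labelled library. Its log2 ratio of -0.34 (-0.44 to -0.25), or 1.27-fold lower, was the lowest of the 10, and 9.09% of genes tested had a lower one. In the 673 and 771 cells that passed a stricter filter (1000 genes or more, mitochondrial share of 5% or less) the Tnfaip3 ratio changed sign, to 0.090. Nfkbia was at 42.2 CPM (40.6 to 43.8) and 44.5 CPM (42.8 to 46.2), a log2 ratio of 0.076 (-0.00053 to 0.15). Nfkbie gave 344 and 401 UMIs, which is 5.21 CPM (4.67 to 5.79) and 6.61 CPM (5.98 to 7.29), a log2 ratio of 0.34 (0.13 to 0.56). The nuclear factor gene Nfkbiz was at 6.95 CPM (6.33 to 7.62) and 8.13 CPM (7.43 to 8.88), a log2 ratio of 0.23 (0.039 to 0.41). The Nfkbiz ratio changed sign to -0.085 when combined within cell cycle phases and to -0.065 within clusters of cells, and it was 0.073 (-0.13 to 0.27) without cluster 5, a cluster found almost wholly in the tamoxifen-labelled library. Bcl3 was the least abundant, at 2.57 CPM (2.20 to 2.99) and 2.74 CPM (2.34 to 3.19), and its 170 and 166 UMIs left the log2 ratio of 0.088 with an interval from -0.23 to 0.41.

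**Figure D1:**
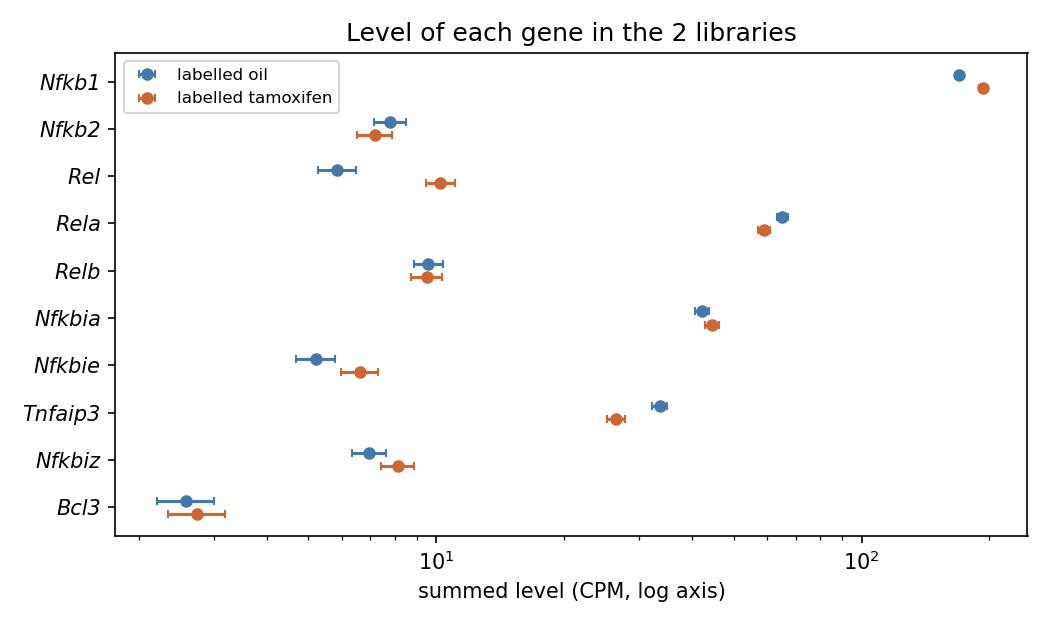
Summed level of each of the 10 genes (CPM, log axis) in the oil-labelled library (blue) and the tamoxifen-labelled library (orange). Points are the libraries and bars the 95% Poisson intervals, which are apart for Nfkb1, Rel, Rela, Nfkbie and Tnfaip3. Nfkb1 is highest at 170 and 193 and Bcl3 lowest at 2.57 and 2.74.

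Read against the whole transcriptome, 2 of the 10 genes (Rel and Nfkbie) were at least 1.2-fold higher in the tamoxifen-labelled library, where the background is 9.08% of genes, and 1 (Tnfaip3) was at least 1.2-fold lower, where the background is 16.9%. Rel alone passed 1.5-fold upward (2.09% of genes) and 0 of the 10 passed it downward (1.27%). The interval lay above 0 for 4 genes, Nfkb1, Rel, Nfkbie and Nfkbiz (19.3% of genes), and below 0 for 2, Rela and Tnfaip3 (39.8%). The median log2 ratio of the 10 genes was 0.082. With only 10 genes, each count lay within a few genes of its background share, so no direction is read from these counts. The differences from the background were not tested.

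UMIs of a 3' kit count transcript ends and are not scaled by length, so the levels of different genes were set side by side. In the oil-labelled library the order was Nfkb1, Rela, Nfkbia, Tnfaip3, Relb, Nfkb2, Nfkbiz, Rel, Nfkbie and Bcl3. Nfkb1 exceeded Rela 2.61-fold (2.52 to 2.70) there and 3.27-fold (3.15 to 3.40) in the tamoxifen-labelled library. The neighbours Nfkb2 and Nfkbiz, and Rel and Nfkbie, did not differ beyond counting error in the oil-labelled library. In the tamoxifen-labelled library the first 4 places were the same, but Rel stood in place 5, next to Relb, from which it did not differ beyond counting error (1.08-fold, 0.96 to 1.21). Nfkbiz, Nfkb2 and Nfkbie followed, with no neighbours among these 3 apart, and Bcl3 was last.

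The share of cells in which a gene was seen was compared after each cell was thinned to 3000 UMIs, with 508 and 345 shallower cells left out. Nfkb1 was seen in 40.9% (39.7 to 42.1) of cells in the oil-labelled library and 44.1% (42.9 to 45.4) in the tamoxifen-labelled library, against 72.5% and 74.0% before thinning. Rel was seen in 2.32% (1.97 to 2.72) and 3.69% (3.23 to 4.19), and in 5.19% and 8.05% before thinning. The share of cells with at least 2 Rel UMIs before thinning was 0.409% and 1.28%. Rel transcripts were therefore both more frequent and more often repeated within a cell in the tamoxifen-labelled library. Nfkbie was seen in 1.79% (1.47 to 2.14) and 2.69% (2.30 to 3.13), and Nfkbiz in 2.45% (2.08 to 2.86) and 3.20% (2.77 to 3.67). These are shares of a single thinning draw. Expected over all draws, they were 1.94% and 2.36% for Nfkbie and 2.59% and 3.00% for Nfkbiz, so the differences fell from 0.91 and 0.75 to 0.42 and 0.41 percentage points. Rela was seen in 18.1% (17.2 to 19.1) and 16.8% (15.9 to 17.8), and Tnfaip3 in 9.98% (9.26 to 10.7) and 8.93% (8.23 to 9.67). The intervals of both genes touched or overlapped between libraries. The remaining shares were 2.39% and 2.40% for Nfkb2, 3.65% and 3.72% for Relb, 13.2% and 13.7% for Nfkbia, and 0.837% and 0.914% for Bcl3. Among genes of other cell types, the B cell gene Cd79a was seen in 0.0632% and 0.0816% of thinned cells. The macrophage gene C1qa was seen in 0.348% and 0.408%, and all these shares were below that of Bcl3. Before thinning, 12 and 8 cells held at least 2 C1qa UMIs, so free RNA and stray cells were not told apart. The sort left too few cells of other types to read the background of the 10 genes.

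**Figure D2:**
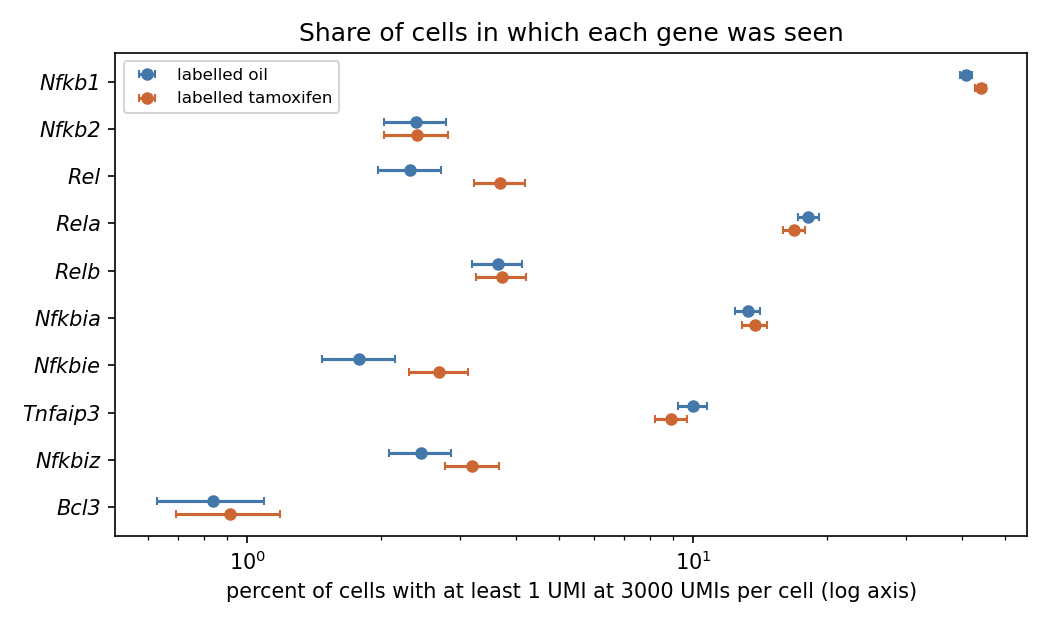
Percent of cells with at least 1 UMI of each gene after thinning to 3000 UMIs per cell (log axis), in the oil-labelled library (blue) and the tamoxifen-labelled library (orange), with exact 95% binomial intervals. The shares come from 1 thinning draw, in which the intervals are apart for Nfkb1, Rel and Nfkbie (for Nfkbie 0.91 percentage points, against 0.42 expected over all draws), and the lowest shares are those of Bcl3 at 0.837% and 0.914%.

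A cell seldom showed several of these genes at that depth. At least 1 of the 10 was seen in 64.2% (63.0 to 65.4) of thinned cells in the oil-labelled library and 65.7% (64.5 to 66.9) in the tamoxifen-labelled library. Exactly 1 gene was seen in 40.2% and 40.1% of cells, 2 genes in 17.8% and 18.4%, and 3 genes in 5.02% and 5.66%. Over cells, the 45 pairs of genes had correlations of thinned counts between -0.0041 and 0.068 in the oil-labelled library and between -0.0027 and 0.099 in the tamoxifen-labelled library, which in counts this sparse is no finding. Single cells reached 11 and 30 UMIs of Nfkbia, 11 and 12 of Tnfaip3, and 12 and 16 of Nfkb1, whereas Rel reached 3 and 4. The 5% of cells with the most Nfkbia held 37.3% and 38.8% of its UMIs, against 23.9% and 24.2% for Rela and 18.9% and 18.5% for Nfkb1. After thinning, the variance was 1.34 and 1.53 times the mean for Nfkbia, 1.37 and 1.36 times for Tnfaip3, 1.33 and 1.31 times for Nfkb1, and 1.09 and 1.004 times for Rela.

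Most of the 10 genes took a larger part of the transcriptome in cells called G1 than in S or G2M, and the 2 libraries differed in phase, with 46.1% (44.9 to 47.4) and 60.4% (59.2 to 61.6) of thinned cells in G1. Over both libraries Rel was at 15.4 CPM (14.3 to 16.6) in G1, 2.89 CPM (2.28 to 3.61) in S and 3.15 CPM (2.68 to 3.68) in G2M. Nfkbia was at 64.7 CPM (62.5 to 67.1), 30.3 CPM (28.2 to 32.4) and 29.1 CPM (27.6 to 30.6). Tnfaip3 was at 44.4 CPM (42.5 to 46.4), 15.8 CPM (14.4 to 17.4) and 23.4 CPM (22.1 to 24.8), and Nfkb1 at 251 CPM, 126 CPM and 140 CPM. Bcl3 was at 3.15 CPM (2.66 to 3.71) in G1, 3.00 CPM (2.38 to 3.73) in S and 1.89 CPM (1.53 to 2.30) in G2M, so that its G1 and S intervals overlapped. Cells in S and G2M held more UMIs, with a mean of 12745 and 13693 UMIs in the oil-labelled library against 6706 in G1. Counted per cell rather than as CPM, Rel had 10.9 UMIs per 100 cells in G1, 3.79 in S and 4.29 in G2M, so it was lower per cell as well. Nfkb1 had 176, 166 and 191 UMIs per 100 cells and Rela 49.4, 75.8 and 77.0, so neither was lower per cell in G2M. Tnfaip3, at 31.3, 20.8 and 31.9 UMIs per 100 cells, was lowest in S. Nfkbia had 45.6, 39.7 and 39.6, and Nfkb2 had 7.70, 7.29 and 7.18 UMIs per 100 cells.

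Within G1 cells 5 of the 10 log2 ratios lay nearer to 0 than over all cells (Nfkb1, Rel, Nfkbia, Nfkbie and Nfkbiz) and 5 lay farther from it. Rel was at 12.5 CPM in the oil-labelled library and 17.6 CPM in the tamoxifen-labelled library, a log2 ratio of 0.50 (0.27 to 0.73). The G1 log2 ratio was 0.017 (-0.036 to 0.070) for Nfkb1, -0.018 (-0.29 to 0.25) for Nfkbie and -0.049 (-0.29 to 0.19) for Nfkbiz, so the higher pooled levels of these 3 genes were not seen among G1 cells. Nfkb2 was at 12.3 and 9.99 CPM in G1, with a log2 ratio of -0.29 (-0.55 to -0.038). Rela was lower in G1, at 78.4 and 64.2 CPM with a log2 ratio of -0.29 (-0.39 to -0.19). Tnfaip3 was lower in the tamoxifen-labelled library in all 3 phases, at 50.9 and 39.7 CPM in G1, 19.1 and 11.2 CPM in S, and 28.6 and 16.4 CPM in G2M. Its log2 ratios were -0.36 (-0.48 to -0.23), -0.77 (-1.09 to -0.47) and -0.80 (-0.98 to -0.62). Combined within phases, the log2 ratio was 0.45 for Rel, -0.54 for Tnfaip3, 0.051 for Nfkb1, 0.11 for Nfkbie, -0.085 for Nfkbiz and -0.092 for Nfkbia.

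**Figure D3:**
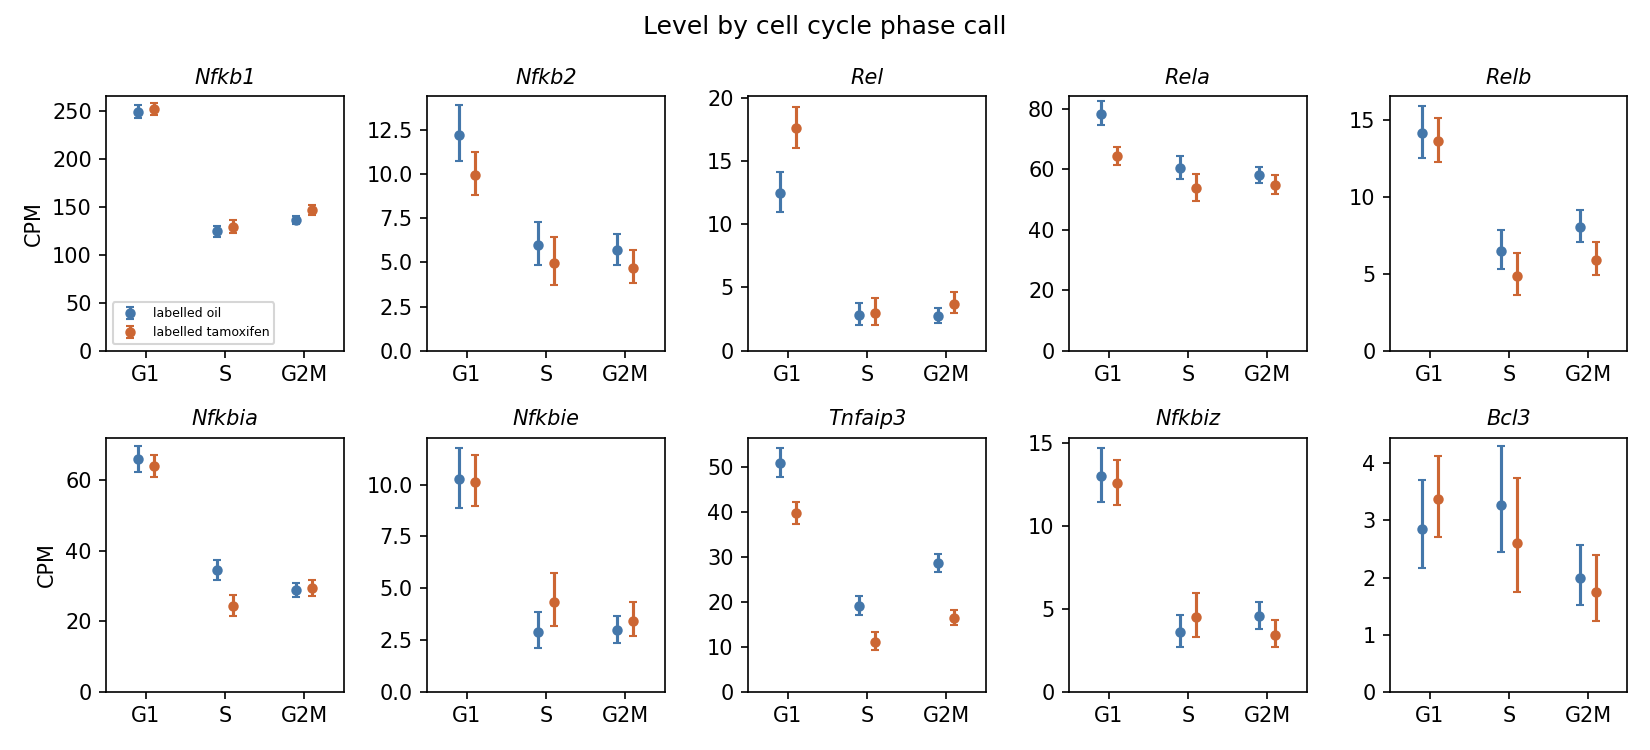
Level of each gene (CPM) by cell cycle phase call in the oil-labelled library (blue) and the tamoxifen-labelled library (orange), with 95% Poisson intervals. Every gene except Bcl3 is highest in G1 in both libraries, and Tnfaip3 is lower in the tamoxifen-labelled library in each phase.

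Clusters of cells, built without the 10 genes and the pathway lists, showed where each gene was high. They are given by number with their leading genes. Over both libraries Rel was highest in cluster 3 (Cx3cr1, Cpa3, Abca1), at 27.7 CPM (24.6 to 31.2), and in cluster 5 (Crebrf, Zfp787, Klhl24), at 24.6 CPM (21.2 to 28.4), and lowest in cluster 2 (histone genes and Top2a), at 1.92 CPM (1.49 to 2.43), a 14.5-fold span. Nfkbia was highest in the same pair when the libraries were summed, at 98.9 CPM (91.9 to 106) in cluster 5 and 83.1 CPM (77.6 to 89.0) in cluster 3, and lowest in cluster 2 at 24.0 CPM (22.4 to 25.7). As 94.4% of the cells of cluster 5 came from the tamoxifen-labelled library, these sums mostly give its level there. In the oil-labelled library Nfkbia was at 96.5 CPM in cluster 3, 75.9 CPM in cluster 0 and 61.4 CPM in cluster 5, and Rel in cluster 5 was at 6.82 CPM from 2 UMIs, below clusters 0 and 6. Nfkbie and Nfkbiz were also highest in cluster 3, at 15.3 CPM (12.9 to 17.9) and 17.6 CPM (15.1 to 20.4). The other pattern was that of cluster 0 (Klf2, S100a6, Mcpt1) and cluster 7 (Anxa2, Tppp3, Myadm). Tnfaip3 was at 69.6 CPM (65.5 to 73.8) and 78.2 CPM (69.7 to 87.4) there, Relb at 22.3 CPM in both, Nfkb2 at 16.0 and 15.7 CPM, and Rela at 87.3 and 86.6 CPM. Nfkb1 was highest in cluster 0 at 351 CPM (342 to 360). Rela was the most even of the subunits, with a 1.66-fold span from cluster 2 at 52.6 CPM to cluster 0.

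The clusters also differed in size between libraries. Cluster 3 held 9.54% of cells in the oil-labelled library and 15.2% in the tamoxifen-labelled library, cluster 0 held 26.6% and 19.9%, and cluster 5 held 0.834% (57 cells) and 14.9% (966 cells). With nearly all its cells from 1 library, cluster 5 may be that library rather than a kind of cell, and with 1 library per group these cannot be told apart. Cluster 5 gave 2 of the 386 Rel UMIs in the oil-labelled library, or 0.518%, and 182 of the 620 in the tamoxifen-labelled library, or 29.4%. It gave 0.646% and 26.8% of Nfkbia UMIs.

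Within clusters the Rel difference was small. Rel was at 13.4 and 15.2 CPM in cluster 0, at 26.5 and 28.5 CPM in cluster 3 and at 11.4 and 10.1 CPM in cluster 6, with intervals that included 0. The interval of the log2 ratio was above 0 in cluster 4 (1.59 and 5.44 CPM, from 6 and 31 UMIs) and in cluster 5 (6.82 and 25.3 CPM, 1.89, 0.018 to 4.95), the latter resting on the 2 UMIs in the oil-labelled library. Combined within clusters, the log2 ratio of Rel was 0.19, and with cluster 5 left out of the pooled comparison it was 0.49 (0.29 to 0.69). The ratio within clusters was thus smaller than the pooled ratio, and cluster 3, high in Rel in both libraries, held a larger share of cells in the tamoxifen-labelled library.

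Nfkbia had opposite directions in cluster 5 and in 4 other clusters. It was lower in the tamoxifen-labelled library in cluster 0 (75.9 and 57.2 CPM), cluster 1 (33.3 and 19.9 CPM), cluster 3 (96.5 and 75.1 CPM) and cluster 6 (56.5 and 37.8 CPM), with log2 ratios of -0.41 (-0.59 to -0.23), -0.74 (-0.96 to -0.53), -0.36 (-0.56 to -0.16) and -0.58 (-0.88 to -0.28). In cluster 5 it was at 61.4 CPM from 18 UMIs and at 100.4 CPM from 722 UMIs, a log2 ratio of 0.71 (0.039 to 1.47). Combined within clusters the log2 ratio was -0.36, and without cluster 5 it was -0.19 (-0.27 to -0.10).

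Tnfaip3 did not share that split. It was lower in the tamoxifen-labelled library in 9 of 10 clusters, with the interval below 0 in 3. These were cluster 1 (19.1 and 12.0 CPM), cluster 2 (20.96 and 11.4 CPM) and cluster 6 (39.1 and 26.1 CPM), with log2 ratios of -0.68 (-0.96 to -0.41), -0.87 (-1.15 to -0.61) and -0.58 (-0.95 to -0.22). In cluster 5 it was at 23.9 and 23.4 CPM and in cluster 8 at 18.27 and 18.23 CPM, so these clusters hardly differed. Rela was also lower in 9 of 10 clusters, with the interval below 0 in clusters 0, 1 and 2, at -0.21 (-0.37 to -0.053), -0.16 (-0.30 to -0.026) and -0.18 (-0.32 to -0.039). The Rela log2 ratio was only -0.012 in cluster 4 and -0.00072 in cluster 7, and in cluster 9 it rested on 17 and 3 UMIs. Nfkb1 was higher in 8 clusters, with the interval above 0 in 5, for example at 233 and 295 CPM in cluster 3 (0.34, 0.22 to 0.46). It was lower in cluster 5, at 232 and 145 CPM (-0.68, -1.03 to -0.30). Relb was lower in the dividing clusters 1 and 2, with log2 ratios of -0.75 (-1.23 to -0.28) and -0.59 (-1.10 to -0.11).

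**Figure D4:**
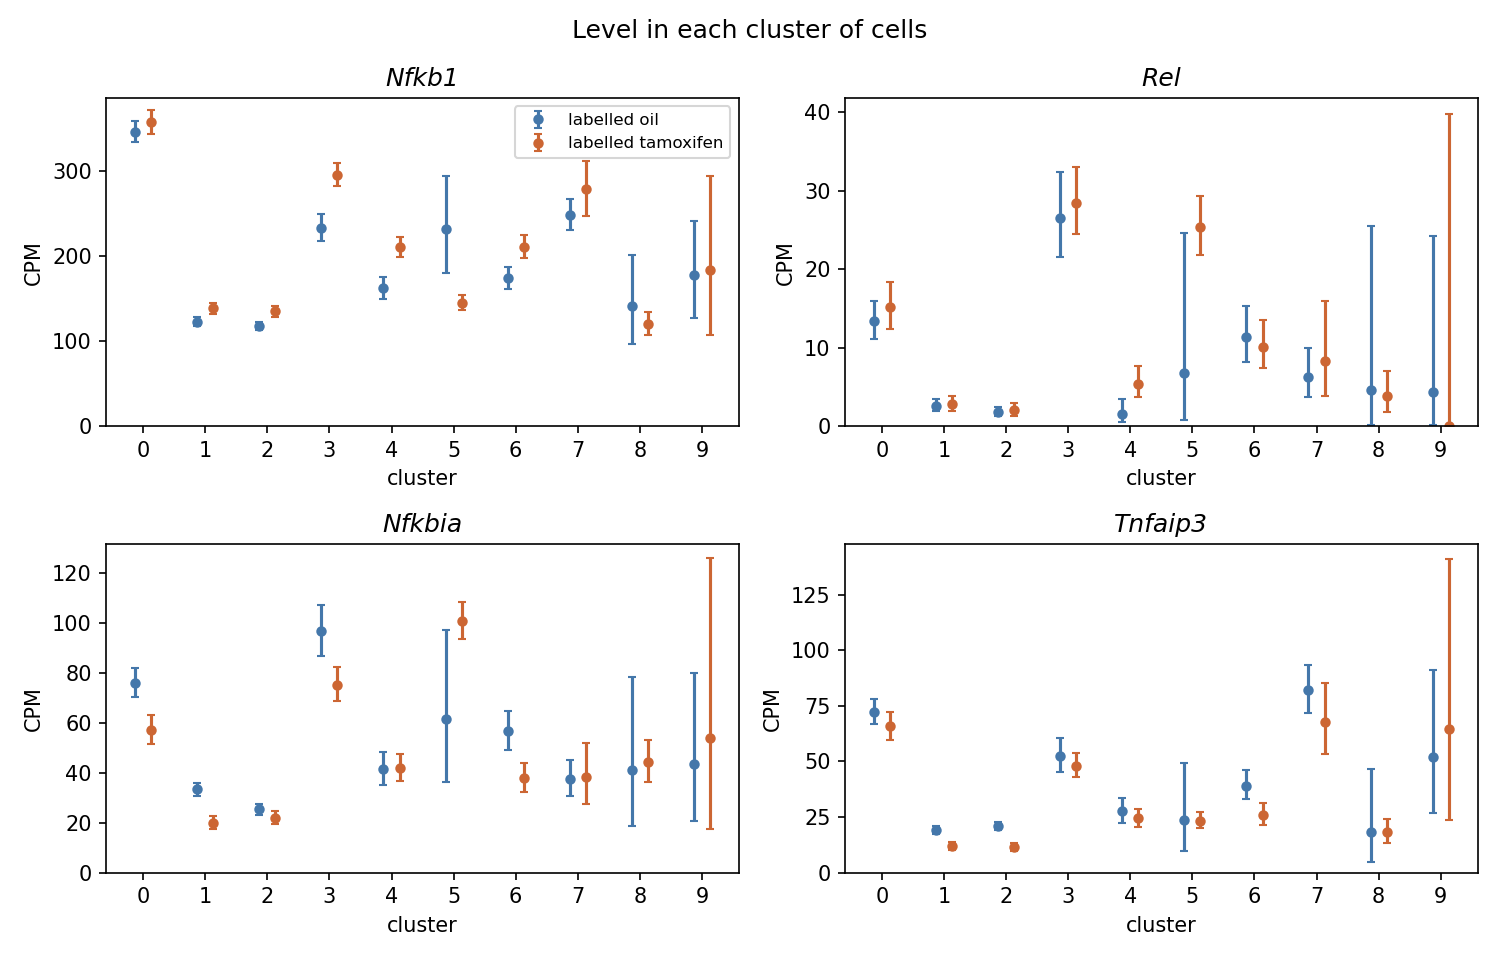
Level of Nfkb1, Rel, Nfkbia and Tnfaip3 (CPM) in each cluster of cells, numbered by size, in the oil-labelled library (blue) and the tamoxifen-labelled library (orange), with 95% Poisson intervals. Nfkbia is lower in the tamoxifen-labelled library in clusters 0, 1, 3 and 6 and higher in cluster 5, while Rel is high in cluster 3 of both libraries.

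**Figure D5:**
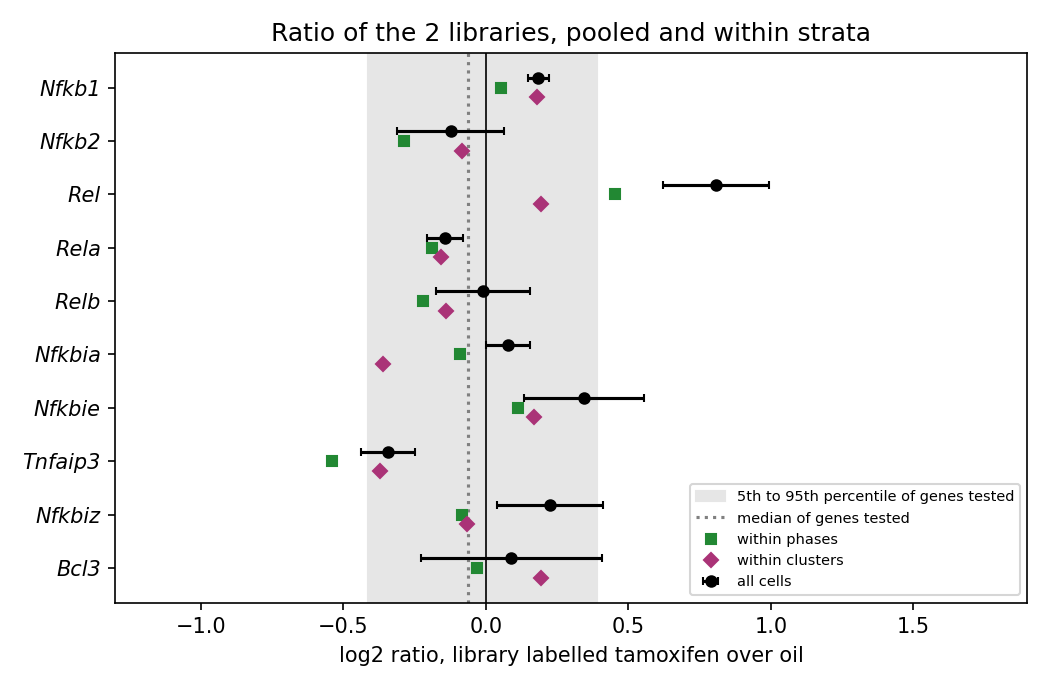
Log2 ratio of the tamoxifen-labelled library over the oil-labelled library for each gene, over all cells with the 95% counting interval (black), combined within cell cycle phases (green) and combined within clusters (purple). The grey band spans the 5th to 95th percentile of the 10527 genes tested and the dotted line is their median of -0.063. Rel moves from 0.81 to 0.45 and 0.19, and Tnfaip3 stays below 0 at -0.34, -0.54 and -0.37.

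Over the 17 cluster-by-library sums with at least 100 cells, the genes most like Nfkb1 among 9006 candidates were Fgfr1 (Pearson r of log2(CPM + 1) 0.97), Mbnl1 (0.97), Vwa5a (0.97), Pirb (0.96) and Nipal3 (0.95). Those most like Rela were Scamp2 (0.98), Anxa11 (0.97), Lgals3 (0.96), Rap1b (0.96) and Oaf (0.95). These points come from 2 libraries and share depth and cell cycle makeup, so the correlations are descriptions.

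The rest of the pathway was described from lists of other inhibitors, kinases and adaptors, receptors, ligands and target genes. Of 16 other inhibitors 14 were measured, with a median log2 ratio of 0.079, 7 intervals above 0 and 2 below, where the background is 19.3% and 39.8% of genes. Cyld, a deubiquitinase that acts beside A20, was at 24.9 and 30.7 CPM (0.30, 0.21 to 0.40). The A20 partners Rnf11 and Itch were at 0.23 (0.14 to 0.31) and 0.22 (0.16 to 0.28) on the log2 scale. The lowest were Commd1 at -0.32 (-0.37 to -0.28), Nfkbid at -0.27 (-0.69 to 0.14) and Nfkbib, encoding IkB-beta, at -0.23 (-0.32 to -0.14).

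Of 34 kinases and adaptors 31 were measured, with a median of -0.029, 6 intervals above 0 and 9 below (background 19.3% and 39.8%). At least 1.2-fold, 0 were higher and 3 lower (background 9.08% and 16.9%). The highest were Birc3 at 15.3 and 17.9 CPM (0.23, 0.11 to 0.36), Birc2 at 0.19 (0.11 to 0.27) and Btrc, part of the ligase that recognises phosphorylated IkB, at 0.17 (0.11 to 0.23). Traf1 was at 5.63 and 4.02 CPM (-0.49, -0.72 to -0.25), Map3k14, encoding the kinase NIK of the non-canonical pathway, at -0.36 (-0.80 to 0.072) and Tradd, the TNF receptor adaptor, at -0.31 (-0.38 to -0.23). The 3 measured genes of the IKK complex fall outside the naming rule and were chosen after their values were seen. They were at -0.029 (-0.087 to 0.029) for Ikbkb, 0.15 (0.024 to 0.28) for Ikbkg and -0.13 (-0.23 to -0.031) for Chuk.

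Only 5 of 22 receptors reached 100 UMIs, and 6 were at 0 in both libraries. Il1rl1, the receptor for IL-33, dominated the list at 539 and 642 CPM (0.25, 0.23 to 0.27), and its partner Il1rap was at 4.88 and 3.82 CPM (-0.35, -0.60 to -0.10). Il18r1 (0.25, -0.015 to 0.52), Tnfrsf13b (0.20, 0.12 to 0.28) and Cd27 (0.14, -0.36 to 0.65) were the others. Of 12 ligands 2 were measured. Ltb was at 1.196 and 1.85 CPM (0.63, 0.20 to 1.06), and Tnf was at 2.15 and 1.34 CPM (-0.69, -1.10 to -0.28).

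Of 40 target genes 25 were measured, with a median of -0.11, 9 intervals above 0 and 13 below (background 19.3% and 39.8%). The highest were Irf1 at 2.26 and 3.53 CPM (0.64, 0.34 to 0.96), Sgk1 at 86.6 and 133 CPM (0.62, 0.57 to 0.67) and Vcam1 (0.56, 0.030 to 1.09, from 54 and 73 UMIs). The lowest were Ccl2 (-0.76, -1.28 to -0.24, from 92 and 50 UMIs), Tnf and Cd44, an adhesion receptor, at 16.0 and 10.1 CPM (-0.66, -0.81 to -0.52). Targets were therefore found in both directions, with 3 at least 1.2-fold higher and 9 at least 1.2-fold lower, against a background of 9.08% and 16.9%. The stricter cell filter turned the median to 0.051. Among the measured targets, Nfkbib, Tnip1, Traf1, Birc2, Birc3 and Tnf also belong to the other pathway lists. Junb also belongs to the immediate-early list and Vcam1 to the macrophage list, so the lists share values.

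Other programs moved beside these genes, and their part in the results was not tested. All 14 measured immediate-early genes of 20 listed were lower in the tamoxifen-labelled library with an interval below 0 (background 39.8% of genes). The list summed to 1655 and 1068 CPM. Its median was -0.46, from Fosb (-1.69), Fos (-1.22) and Dusp1 (-1.09) to Egr1 (-0.31), Btg2 (-0.20) and Ier5 (-0.17). Of the 10 NF-kB genes, 4 were also lower in the tamoxifen-labelled library, Tnfaip3 among them, and 6 were higher. The median over all genes tested was itself below 0, at -0.063. The interferon genes (16 measured of 20 listed) were another such program. Summed mast cell genes were at 1500 and 1378 CPM and erythroid genes at 4644 and 5865 CPM.

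The barcodes that the cell filter left out, 936 and 839, gave the same sign for 7 of the 10 genes, all but Nfkbia, Nfkbie and Bcl3. Their log2 ratio was -0.36 (-0.63 to -0.11) for Rela, -0.38 (-0.71 to -0.058) for Tnfaip3 and 0.37 (-0.24 to 0.99) for Rel.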

How the data were processed

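The deposited values are raw UMI counts. The authors obtained them with Cell Ranger 3.0.2, which assigned reads of the 10x 3' V3 kit to mm10 genes, and applied no normalization. The strand setting of the counting is not given in the sources used here. Cells were kept from 500 genes upward and up to 10% mitochondrial UMIs. Scrublet marked 0% of barcodes as doublets, so none were removed. A call of 0% does not show that doublets were absent, and an alternative left out the 6% highest scores. CPM is a gene's summed UMIs per 1000000 UMIs of its library, and ratios have conditional binomial, levels Poisson and shares Clopper-Pearson intervals. Genes with under 100 UMIs over the pair of libraries were not ranked. The background is the share of 10527 genes past the same fold or interval.

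Cells were thinned to 3000 UMIs for shares and phases. Clusters came from Seurat at resolution 0.5 with 2000 variable features and 20 components. The 10 genes, the NF-kB lists, the interferon list, Usp18 and further genes, 6549 in all, were kept out of the variable features. The further genes were those at least 1.5-fold different between the libraries, and sex-chromosome, mitochondrial and histocompatibility genes. The immediate-early, mast cell, erythroid and lineage lists were not kept out as lists. Ratios within phases or clusters were combined with Mantel-Haenszel weights. The named genes are all 10 members, the 3 highest and 3 lowest ratios of each list, the 5 genes most like Nfkb1 and Rela, and Usp18. The members and lists were chosen with earlier results of these data known. The ratio step was tested on simulated counts. Positions are from GENCODE M21, where 30934 of 31053 identifiers were found, and promoter sequences from RefSeq. Alternatives were other cell filters, scalings, weights, count minimums, thinning depths and strata. R 4.3.3 ran Seurat 5.3.0, edgeR 4.0.16 (TMM scaling), DESeq2 1.42.0 (median-ratio scaling) and Matrix 1.6.5. Python 3.11.15 ran pandas 2.3.3 and scipy 1.17.1 with numpy 2.4.6, scanpy 1.11.5 for Scrublet, and matplotlib 3.10.9.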

Additional observations from a re-analysis of the deposited data

How the results depend on the processing

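No paired analysis was possible because the 2 groups hold 1 library apiece. Over 15 alternatives the log2 ratio of Nfkb1 and Rel stayed above 0 and that of Rela below 0, while the sign changed in 1 alternative for Nfkb2, Nfkbie and Tnfaip3, in 2 for Bcl3, in 5 for Nfkbiz and in 6 for Relb and Nfkbia. Leaving out cluster 5 and keeping only G1 cells were chosen after seeing the data, as was the expected share over all draws. The causes of these shifts were not tested, except that a lower count minimum tests more genes.

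The stricter cell filter (1000 genes or more, mitochondrial share of 5% or less) kept 673 and 771 cells. It gave log2 ratios of 0.30 (Nfkb1), 0.68 (Nfkb2), 1.11 (Rel), -0.31 (Rela), 0.59 (Relb), 0.56 (Nfkbia), 0.79 (Nfkbie), 0.90 (Nfkbiz), 0.090 (Tnfaip3, reversed) and 1.48 (Bcl3). The Tnfaip3 share then differed by 1.39 percentage points, also reversed, and medians became 0.56 for the 10 genes, 0.087 for kinases and adaptors and 0.051, reversed, for targets. TMM scaling gave 0.25 for Nfkb1 and -0.078 for Rela, median-ratio scaling 0.25 for Nfkb1, and a total leaving out mitochondrial and ribosomal protein genes 0.26 for Nfkb1, 0.16 for Nfkbia, with an interval now above 0 (0.080 to 0.23), and -0.063 for Rela, with an interval that now included 0 (-0.13 to 0.0014). Equal weight per cell gave 0.11 for Nfkb1 and 0.19 for Relb.

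Within phases the ratios were 0.051 (Nfkb1), 0.45 (Rel), -0.22 (Relb), -0.092 (Nfkbia), 0.11 (Nfkbie), -0.085 (Nfkbiz, reversed) and -0.54 (Tnfaip3). In G1 cells only they were 0.017 (Nfkb1), 0.50 (Rel), -0.29 (Rela), -0.045 (Nfkbia), -0.018 (Nfkbie, reversed) and -0.049 (Nfkbiz, reversed). Within clusters at resolution 0.5, 0.3 and 1.0, Rel was 0.19, 0.21 and 0.19, Nfkbia -0.36, -0.31 and -0.37, and Nfkbiz, reversed, -0.065, -0.065 and -0.057. Without cluster 5 the ratios were 0.23 (Nfkb1), 0.49 (Rel) and -0.19 (Nfkbia). A minimum of 20 UMIs gave 1584 genes 1.2-fold higher, 572 genes 1.5-fold higher and 370 genes 1.5-fold lower, and a minimum of 500 UMIs gave 586, 105 and 73. Of 50 values for the difference in share of cells, 14 moved beyond the counting interval, among them Nfkbie at 0.18 percentage points with 1500 UMIs per cell. The other 107 ratio values stayed inside the counting interval of the reported ones. Depth limits Bcl3, Nfkbie and Rel most, with 170, 344 and 386 UMIs in the oil-labelled library.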
